A study of Mus musculus with 2 samples.

Results

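The regions described here are stretches of chromatin at which Ring1b was called but to which the authors attached no gene. They were found by position. A merged region was taken when it overlapped, by at least 1 bp, no interval that the authors' gene table names for any gene. The rule took 552 of the 4316 merged regions (12.8%, exact 95% interval 11.8 to 13.8%), and 3764 were assigned. Each of the 551 with a listed gene on its chromosome lay over 10 kb from it, whereas the largest gap of an assigned region was 9985 bp. The rule thus set a minimum distance, and that distance is not a result. The remaining region lay on chromosome Y, where no gene was listed.

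ChIP-seq, the sequencing of DNA that an antibody pulls down with its protein, was used to locate Ring1b in incisor pulp cells of CD1 mice at postnatal day 5. The mice had received 1 dose of 5-ethynyl-2'-deoxyuridine (EdU, a thymidine analogue built into new DNA) at 3.3 µg per g 24 h earlier, and EdU-positive cells were sorted. EdU marks cells of any type that copied DNA while it was available after the dose. The sorted cells thus cannot be taken as 1 cell type, and no expression was measured by which to check them. The labels give 1 ChIP sample and 1 input sample, the latter with the same strain, age and EdU dose. The tracks hold 2 sets of ChIP intervals, named replicates in the headers and called run 1 (465 intervals) and run 2 (3938 intervals) here. They were counted as 1 sample, so no SD or p-value is given. Exact 95% intervals on shares cover counting error only. No input values were used, and the files do not state read depth. Heights are the authors' summit values, in whole numbers whose scaling is not stated. Coordinates are in mm10.

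Ring1b is a ubiquitin ligase of Polycomb repressive complex 1, which adds ubiquitin to a histone and holds many developmental genes silent. In mammals the complex gathers at stretches rich in CpG dinucleotides, most of them gene starts. It is also known at distal sites, among them CpG islands away from annotated genes and regulatory elements of developmental genes. In the continuously growing mouse incisor, the pulp mesenchyme holds stem cells and their dividing, transit-amplifying progeny.

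Although no gene was assigned, 20 of these regions contained a gene start listed in a RefSeq promoter table (build GRCm38.p6, the build mm10 names). The table holds 27025 of the 49943 RefSeq genes used here and not every start of each, so starts such as the outermost ones of Foxp1 and Aff1, which also fell in unassigned regions, are not counted. The 20 were found among 532 unassigned regions on the chromosomes for which promoter sequences were used (3.76%, exact 95% interval 2.31 to 5.75%). The starts belonged to 22 genes, of which 15 were long non-coding RNAs (lncRNAs) and 7 protein-coding. Windows of 4 such genes among those with the highest regions are shown, each 300 bp, from 250 bases before to 50 bases after the start, on the strand of the gene. Capitals mark CpG dinucleotides, which read the same on both strands. Lhx2 (chr2:38339031-38339330, plus strand) encodes a LIM homeobox factor of forebrain, eye and limb. Gm34978 (chr2:146833590-146833889, plus strand), Gm30528 (chr15:103060506-103060805, minus strand) and Gm14114 (chr2:146840521-146840820, minus strand) are lncRNA genes.
Lhx2: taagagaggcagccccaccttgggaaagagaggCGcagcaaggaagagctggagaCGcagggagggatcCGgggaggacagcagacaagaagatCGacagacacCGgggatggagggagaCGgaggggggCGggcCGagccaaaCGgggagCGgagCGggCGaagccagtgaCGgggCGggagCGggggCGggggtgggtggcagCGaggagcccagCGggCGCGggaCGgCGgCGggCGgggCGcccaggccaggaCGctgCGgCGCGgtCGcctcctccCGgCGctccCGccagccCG
Gm34978: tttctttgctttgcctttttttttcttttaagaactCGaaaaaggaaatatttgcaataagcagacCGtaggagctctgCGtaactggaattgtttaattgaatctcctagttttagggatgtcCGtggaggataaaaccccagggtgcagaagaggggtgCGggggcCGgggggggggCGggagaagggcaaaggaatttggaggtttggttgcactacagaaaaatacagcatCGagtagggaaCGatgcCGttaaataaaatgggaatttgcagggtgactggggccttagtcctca
Gm30528: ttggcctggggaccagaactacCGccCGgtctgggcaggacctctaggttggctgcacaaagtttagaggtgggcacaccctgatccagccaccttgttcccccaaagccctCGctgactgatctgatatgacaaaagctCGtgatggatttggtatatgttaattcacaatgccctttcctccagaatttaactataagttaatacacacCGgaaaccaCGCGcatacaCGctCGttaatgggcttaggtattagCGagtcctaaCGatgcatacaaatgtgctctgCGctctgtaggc
Gm14114: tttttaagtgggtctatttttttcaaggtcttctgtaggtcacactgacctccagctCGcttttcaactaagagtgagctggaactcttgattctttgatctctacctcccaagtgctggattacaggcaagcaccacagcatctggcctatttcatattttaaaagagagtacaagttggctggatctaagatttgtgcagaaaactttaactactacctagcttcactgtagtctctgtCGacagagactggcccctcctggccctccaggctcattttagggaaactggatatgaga
The Lhx2 window held 34 CpGs and was 74.7% G or C. The window of Gm34978 held 10 CpGs, that of Gm30528 held 12 and that of Gm14114 held 2. These windows range from a dense CpG island to CpG-poor sequence. The lncRNA Gm46736 starts in the same region as Lhx2, on the opposite strand, with 44 CpGs in its window. The printed windows of Lhx2, Gm30528 and Gm14114 lay inside their regions, whereas that of Gm34978 lay partly outside, since its region begins at 146833749. Over the 22 genes the count of CpGs ranged from 1 to 52, with a median of 20. The median was 28 over 1450 genes whose start lay in an assigned region and 7 over all 27025 genes of the table. Of the 22 genes, 11 (50%) had 20 or more, against 79.3% of starts in assigned regions and 26.8% of all genes. The sets differ in gene kind. LncRNA genes were 15 of the 22, 189 of the 1450 and 9533 of the 27025, and the part of gene kind was not tested. The starts with the most CpGs were those of Strbp (52), 6430573P05Rik (45), Gm46736 (44) and Sgms2 (44), the last a sphingomyelin synthase gene. Those of Gm31235 (1), Gm14114 (2) and Gm47708 (4) had few. A start lay in 35.1% of assigned regions, a contrast that the assignment rule itself favours.

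Most unassigned regions were low and narrow, and 8 reached a height of 10 or more. Heights ran from 2 to 25 with a median of 4, and widths from 248 to 4424 bp with a median of 625 bp. Together they covered 366 kb. The highest, of height 25, lay on chromosome 3 at 5860336 to 5860940. It was 605 bp wide, overlapped no RefSeq gene, and lay 2941 kb from the nearest listed gene, Mrps28, which encodes a mitochondrial ribosomal protein. The next, of height 17 and 1535 bp wide, lay on chromosome 4 at 133813229 to 133814763. It overlapped the predicted protein-coding gene Gm34296, 59.6 kb upstream of Arid1a, which encodes a subunit of the SWI/SNF chromatin remodelling complex. The third, of height 15 on chromosome 11 (109011475 to 109012286), overlapped the lncRNA gene Gm36876. Its nearest listed gene, at 60.7 kb, was Axin2, which encodes a feedback inhibitor of Wnt signalling. All 3 were called in run 2 only, as were 89.3% of all merged regions. No input values were used at them, so whether their signal depends on the antibody was not tested.

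Of the other 7 among the 10 highest, only the region near Barhl2 had a developmental list gene (described below) as nearest protein-coding gene. Over all unassigned regions the share with such a nearest gene was 11.1%, and over all merged regions 18.3%. The region of height 11 on chromosome 5 (106469835 to 106471380) lay 11.7 kb upstream of Barhl2, a homeobox gene of the nervous system, and 117 bp from an assigned region. The next, also of height 11, lay on chromosome 10 at 42633690 to 42635709, 50.1 kb upstream of Nr2e1, which encodes an orphan nuclear receptor of neural stem cells. On chromosome 6, a height of 9 was found 12.2 kb upstream of Igf2bp3, whose product binds mRNA in the fetus. The remaining ones had height 12 near Camkmt, a calmodulin methyltransferase gene, 11 far from Skap2, 10 far from the Ras pathway inhibitor gene Spred1, and 9 over Gm34978. A region on chromosome 15 (101246353 to 101247130) also had height 9 but was narrower, and was placed after these by width. It overlapped no RefSeq gene and its nearest protein-coding gene, at 6772 bp, was Nr4a1, an orphan nuclear receptor gene that the deposited table does not list. All of these regions were called in run 2 only, and no region of run 1 only exceeded a height of 6.

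The widest unassigned region spanned 4424 bp on chromosome 6 at 51177987 to 51182410, with a height of 11. No RefSeq gene overlapped it, and Skap2, which encodes an adaptor of Src family kinases, was the nearest listed gene at 677 kb. The next widest, of 2710 bp, covered the start of Gm14114 printed above. Among the 10 widest were also regions of 2070 bp at Gata4, 2003 bp near Pax2, 1895 bp at Lhx2 and 1682 bp at Foxp1. The others were 2020 and 1921 bp upstream of Nr2e1, 1744 bp over Gm33293 and 1718 bp over Gm34978. Gata4, Pax2, Lhx2 and Foxp1 encode factors of heart, kidney, forebrain and many other organs. A developmental list gene was nearest for 11.1% of unassigned and 18.3% of all merged regions. The region near Pax2 lay 14.5 kb upstream of the listed model and overlapped the lncRNA gene Gm35610. Its height was only 5, so width and height did not go together there.

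Unassigned regions were spread out, with some exceptions. When neighbours within 10 kb were joined, 94 of the 552 (17.0%) fell into 38 groups of 2 or more, and 11 groups had 3 or more. The nearest other region lay at a median of 166840 bp from an unassigned region and 63476 bp from an assigned one. Another region lay within 10 kb of 18.7% of unassigned regions (exact 95% interval 15.5 to 22.2%) and of 36.3% of assigned ones (34.8 to 37.9%). The assignment rule itself favours both contrasts, since assigned regions gather within 10 kb of listed genes and unassigned ones cannot lie there. In groups the median width was 688 bp, and 7 of the 94 regions were called in run 1 only. Of all unassigned regions 23.2% were called in run 1 only, and of all merged regions 8.99%. Regions that stood alone had a median width of 614 bp. Both kinds had a median height of 4.

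The largest group held 7 regions over 14.7 kb on chromosome 1 at 63247418 to 63262098. It lay upstream of Zdbf2, an imprinted gene expressed from the paternal copy, at distances of 11.2 to 25.4 kb from the listed model. Heights along the group were 4, 7, 3, 4, 5, 6 and 5. The 5' end of Zdbf2 in the deposited table, at 63273269, carried an assigned region of height 14. RefSeq extends Zdbf2 to 63200358, so that all 7 lay inside that longer model, and 4 of the 7 also overlapped the lncRNA gene 1700039I01Rik. The next group held 5 regions over 7.80 kb upstream of Tbx15, a T-box gene of skeletal development, with heights of 4, 5, 4, 5 and 4. An assigned region of height 21 lay at Tbx15 itself. The third had 4 regions over 8.37 kb, with heights of 6, 11, 3 and 4. It was the group of the widest region and had no assigned region within 820 kb. All 16 regions of these groups were called in run 2 only, beside 76.3% of all unassigned and 89.3% of all merged regions.

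**Figure D1:**
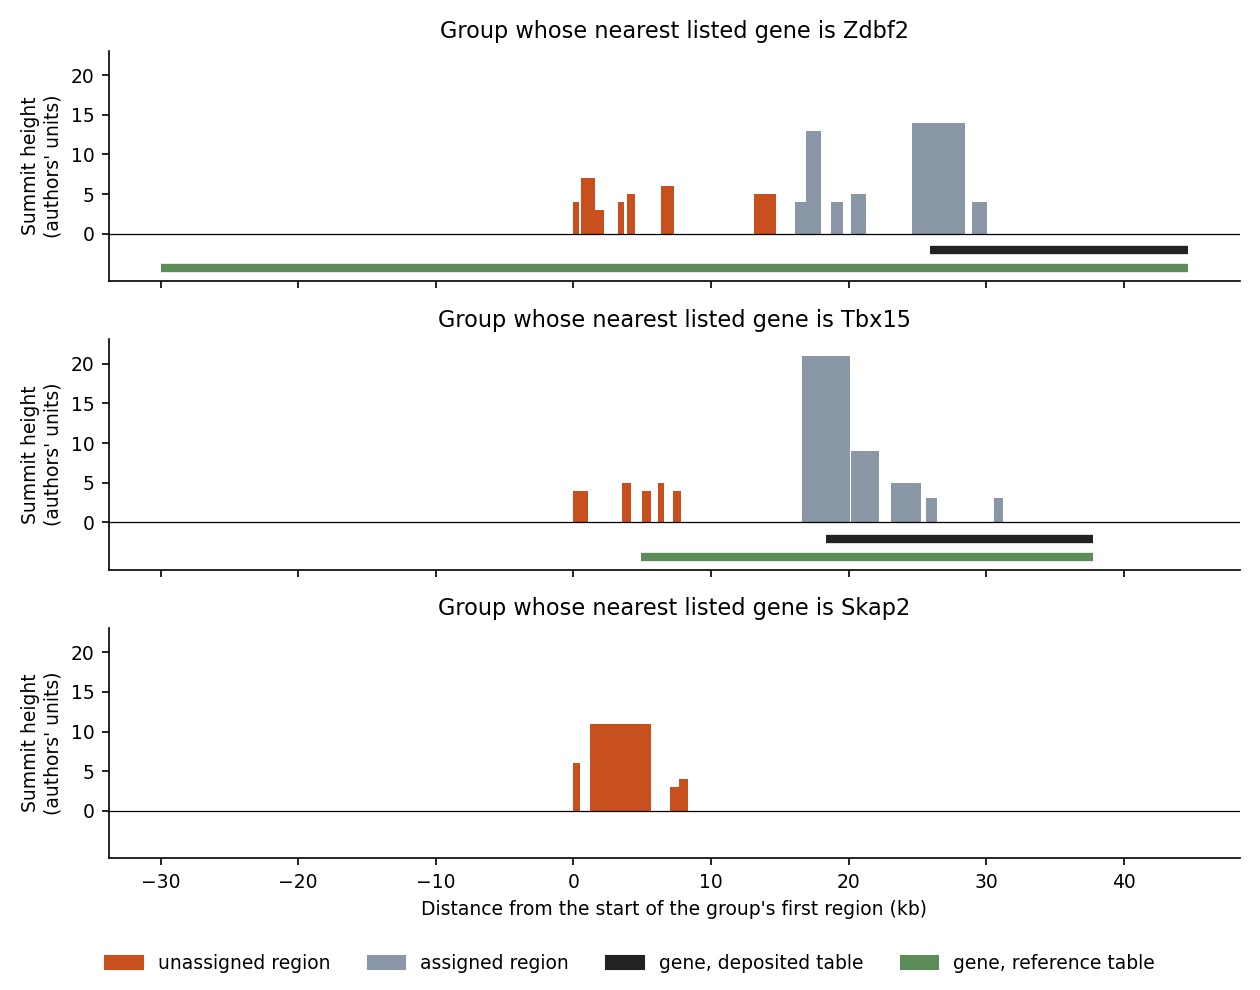
Maps of the 3 largest groups of unassigned regions. The x axis is distance in kb from the start of the group's first region, the y axis is summit height in the authors' units, bars are regions to scale, and lines below 0 are gene models, drawn up to 30 kb from the group. Unassigned heights of 3 to 7 stand upstream of assigned heights of up to 14 at Zdbf2, and heights of 4 to 5 upstream of up to 21 at Tbx15, while the group nearest to Skap2 stands alone.

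High regions were less common among the unassigned than among the assigned. A height of 10 or more was reached by 8 of 552 (1.45%, exact 95% interval 0.628 to 2.84%), beside 3.80% of all regions and 4.14% of assigned ones (3.53 to 4.83%). A height of 6 or more was reached by 63 (11.4%, 8.88 to 14.4%), beside 24.6% of all regions and 26.5% of assigned ones (25.1 to 28.0%). The intervals did not overlap in either case. They treat regions as independent counts, and no test was made because all regions came from 1 sample. The share without a gene fell from 17.6% of regions of height 2 to 3 and 16.3% at height 4 to 10.2% at height 5, 6.12% at heights of 6 to 9 and 4.88% at 10 or more.

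That difference in height was seen within run 2. Among regions called in run 2 only, 14.3% of 421 unassigned (11.1 to 18.0%) and 27.4% of 3434 assigned regions (25.9 to 29.0%) reached 6. Among those called in run 1 only, the shares were 1.56% of 128 unassigned (0.190 to 5.53%) and 3.08% of 260 assigned regions (1.34 to 5.97%). A difference was not detectable at these counts. Run 1 heights stopped at 6 in both classes, which limits what can be seen there.

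**Figure D2:**
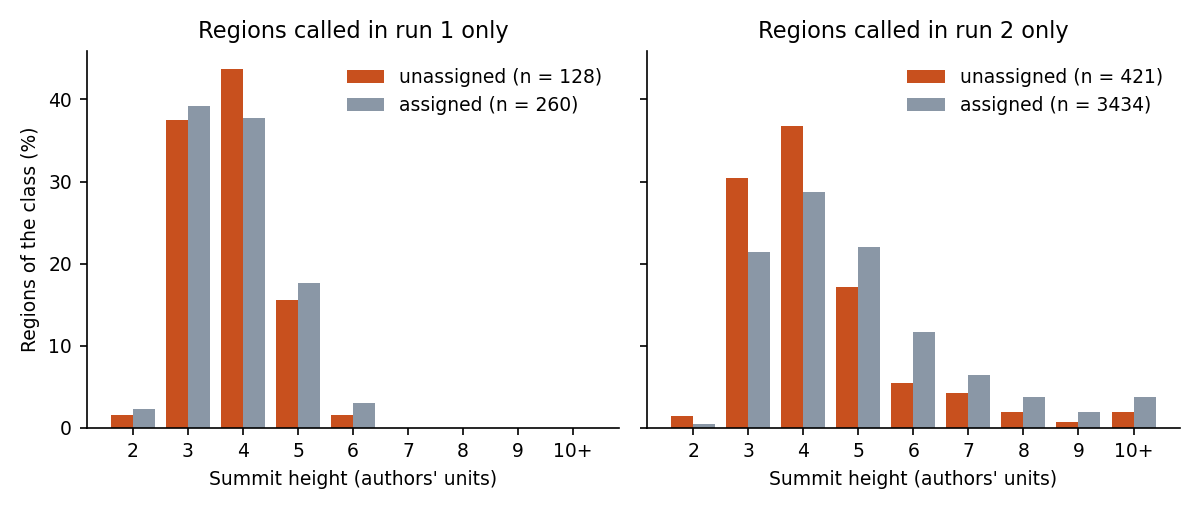
Share of unassigned and assigned regions at each summit height, in regions called in run 1 only and in run 2 only. The x axis is summit height in the authors' units, with 10 or more pooled, and the y axis is percent of the class. In run 2 the unassigned regions are shifted to heights of 3 and 4, while in run 1 both classes have most regions at 3 and 4.

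Width showed a similar contrast in run 2. The median was 632 bp (quartiles 519 to 709 bp) for unassigned regions called in run 2 only and 686 bp (572 to 890 bp) for assigned ones. In run 1 only, the medians were 602 and 582 bp. A width over 1 kb was found in 42 unassigned regions (7.61%, 5.54 to 10.1%) and in 17.7% of assigned ones (16.5 to 19%), and in no region called in run 1 only. Widths were also compared at like heights. In run 2 the medians at heights of 2 to 3 were 648 bp for 134 unassigned and 656 bp for 750 assigned regions. At height 4 they were 614 bp unassigned and 670 bp assigned, at 5 they were 480 and 646 bp, and at 6 to 9 they were 798 and 850 bp. In run 1 the order at height 4 was the other way, with 613 bp unassigned and 580 bp assigned, and at height 5 the medians were 382 and 403 bp. The 8 unassigned regions of height 10 or more, all of run 2, had a median of 1489 bp, against 1964 bp for 129 assigned ones.

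**Figure D3:**
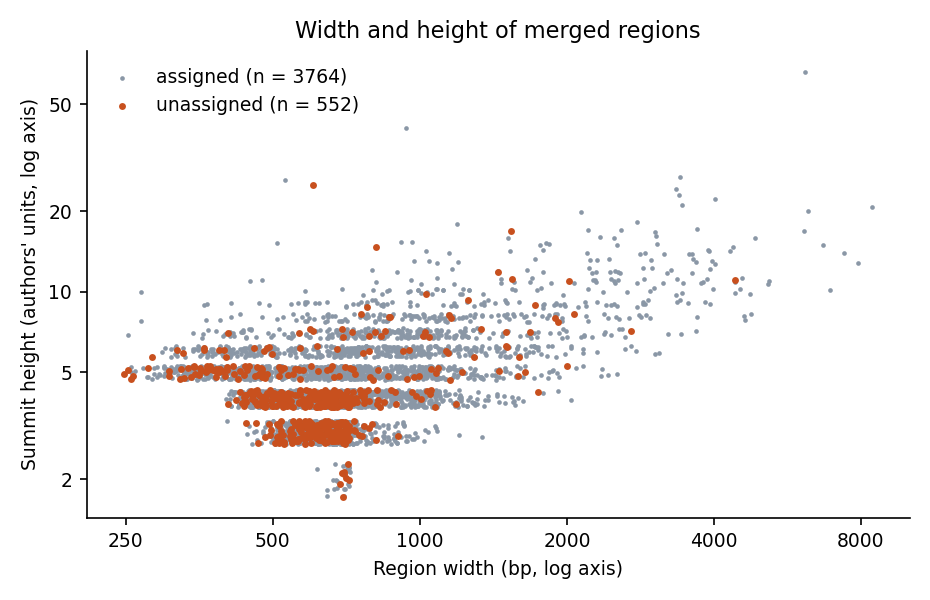
Width and height of all merged regions, both on log axes, with unassigned regions over assigned ones and heights jittered by up to 0.3 so that ties can be seen. The quartiles of unassigned width are 515 and 697 bp, and those of height are 3 and 5. The region of height 25 is only 605 bp wide, and the one of 4424 bp has a height of 11.

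The runs contributed unequally. Of the 552 regions, 421 (76.3%, 72.5 to 79.8%) were called in run 2 only, 128 (23.2%, 19.7 to 26.9%) in run 1 only and 3 in both. Run 1 thus called 23.7% of unassigned regions, beside 10.7% of all regions. Both runs called 0.543% of unassigned regions (0.112 to 1.58%), beside 1.69% of all regions and 1.86% of assigned ones (1.45 to 2.34%). Those last intervals overlap. Seen from the runs, 33.0% of regions called in run 1 only had no gene (28.3 to 37.9%), against 10.9% of those in run 2 only (9.95 to 11.9%) and 4.11% of those in both (0.856 to 11.5%). Over the height classes of run 1 the share ran from 20% of 10 regions at 6 to 9 (2.52 to 55.6%) to 36.4% of 154 at height 4 (28.8 to 44.5%). In run 2 it fell from 15.2% at 2 to 3 to 5.84% at 10 or more. The sources used here do not say whether the runs came from separate animals, and the part of the run in these shares was not tested.

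The 3 regions called in both runs were moderate in height. The region on chromosome 1 at 14503687 to 14505187 reached 5 in run 1 and 6 in run 2. It lay 193 kb upstream of Eya1, a transcriptional coactivator gene of ear, kidney and pharyngeal arches. The region on chromosome 5 at 67228209 to 67229952 reached 3 and 4 and overlapped the lncRNA gene Gm33293, 77.0 kb from the zinc transporter gene Slc30a9. That on chromosome 8 at 121394575 to 121395394 reached 5 and 3 and lay 203 kb from Zcchc14. None of the 3 reached 10 in either run. Of the regions called in run 1 only, 2 reached 6, inside the longer RefSeq model of the forkhead gene Foxn3 on chromosome 12 and 947 kb from another forkhead gene, Foxn2, on chromosome 17.

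Beyond the 10 kb that the rule required, distances to the nearest listed gene varied over orders of magnitude. The median was 212967 bp, with quartiles of 68282 and 648910 bp. Of 551 regions, 55 (9.98%) lay at 10 to 20 kb, 67 (12.2%) at 20 to 50 kb, 54 (9.80%) at 50 to 100 kb, 204 (37.0%) at 100 to 500 kb, 83 (15.1%) at 500 to 1000 kb and 88 (16.0%) beyond. The 3993 listed genes with 10 kb on each side cover 11.4% of the annotated span. The side was even over all: 274 were upstream and 277 downstream of the gene (49.7% upstream, exact 95% interval 45.5 to 54.0%). At 10 to 20 kb, 36 were upstream and 19 downstream. Neighbouring regions at 1 gene are counted separately here, such as the 5 upstream of Tbx15, so these are not counts of separate loci. The farthest was a region of height 5 on chromosome X at 79750525 to 79750896, 8082 kb from Gpr50. The next lay 5136 kb from BC003331 on chromosome 1 and 4468 kb from Mrps28 on chromosome 3. The other 2 of the 5 farthest lay 4329 kb from the microRNA gene Mir17 on chromosome 14 and 4214 kb from the protocadherin gene Pcdh18 on chromosome 3.

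Regions near a listed gene differed from distant ones in several values. A height of 6 or more was reached by 18.2% at 10 to 20 kb and 22.4% at 20 to 50 kb, and by 5.68% beyond 1000 kb. The share called in run 1 only was 7.27% at 10 to 20 kb, 14.8% at 50 to 100 kb and 35.2% beyond 1000 kb. The median distance was 379650 bp for regions called in run 1 only and 174998 bp for those in run 2 only. Median width went from 685 to 561 bp between the same ends, at a median height of 4 in every bin. The nearest listed genes themselves had a median peak height of 7 at 10 to 20 kb, 6 at 20 to 50 kb and 5 in the other bins, against 5 over all listed genes. Run and distance moved together, and their parts were not tested.

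**Figure D4:**
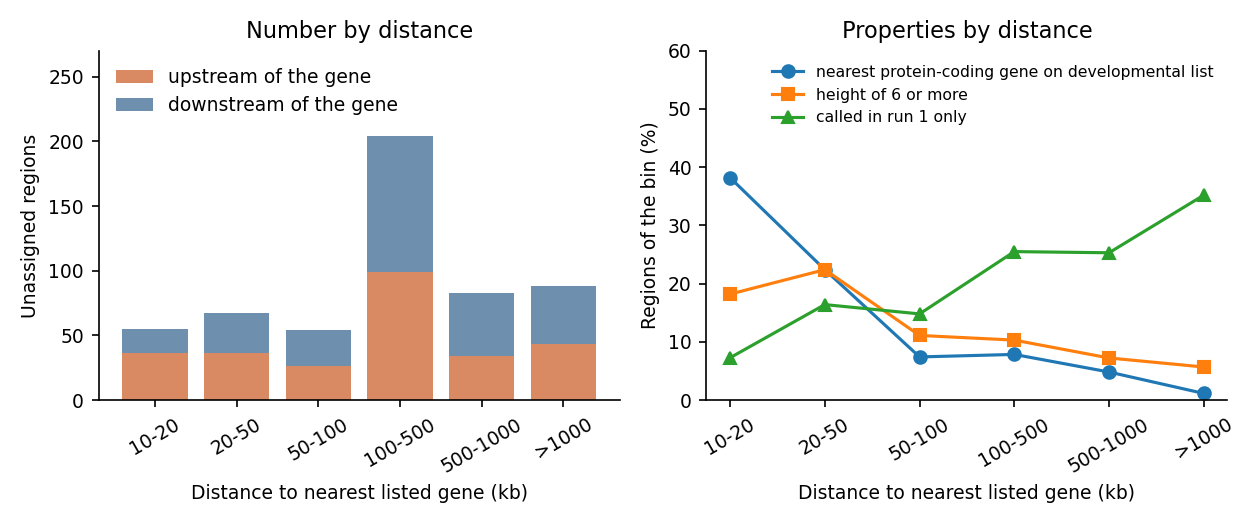
Unassigned regions by distance to the nearest listed gene, in bins in kb. The left panel counts regions upstream and downstream of that gene, and the right panel gives the percent of each bin that is nearest to a developmental gene, reaches a height of 6 or is called in run 1 only. The share nearest to a developmental gene is 38.2% in the first bin and 1.14% in the last, and the share called in run 1 only is 7.27% and 35.2%. Most of the developmental genes nearest to these regions are themselves listed genes, which favours the fall of the first share.

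A developmental transcription factor gene was the nearest protein-coding gene for 61 of the 552 regions. A list of 236 such genes (Hox, Pax, Sox, T-box, forkhead, Gata, LIM, Nkx, Irx, Dlx and other families) makes up 1.08% of 21887 protein-coding genes, and 2.15% of positions taken every 10 kb had a list gene as nearest. The 61 make up 11.1% of unassigned regions (8.56 to 14.0%), beside 18.3% of all regions and 19.3% of assigned ones (18.1 to 20.6%). These 61 lay near 41 different genes, 37 of them in the deposited table, and 40 lay within 50 kb. Among the 61, 13 (21.3%) reached a height of 6, against 50 of the other 491 (10.2%), and the median width was 694 against 617 bp. The share was 38.2% at 10 to 20 kb from a listed gene, 22.4% at 20 to 50 kb and 1.14% beyond 1000 kb. As 37 of the 41 genes are themselves listed, a region far from every listed gene is also far from those. This favours the fall by construction. In groups of neighbours it was 24.5%, and among regions that stood alone 8.30%. Among regions called in run 2 only, it was 12.6% of unassigned (9.57 to 16.1%) and 20% of assigned ones (18.7 to 21.4%). Among those called in run 1 only the order was the reverse, with 8 of 128 unassigned (6.25%, 2.74 to 11.9%) and 6 of 260 assigned (2.31%, 0.851 to 4.95%), and these intervals overlap.

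After Barhl2, the highest of these regions had heights of 8 at Gata4, Lhx2, Hoxc4, Hoxa13 and Foxd1. The region at Hoxc4, on chromosome 15 at 103060207 to 103061352, lay 23.4 kb from the gene and holds the start of Gm30528 printed above. The region at Hoxa13, a gene of limb ends and genital tract, lay 13.1 kb away on chromosome 6 at 52273989 to 52274857. The next unassigned regions there, of height 3 and 7, lay between Hoxa13 and Evx1, a homeobox gene beside the Hoxa cluster. Foxd1, which marks stromal progenitors in kidney, had its region 34.2 kb away on chromosome 13. Heights of 7 were found at Foxp1, at Prdm1 (a zinc finger repressor gene, not in the deposited table) and at the nuclear receptor gene Nr2f2 (18.7 kb). All of these were called in run 2 only, as were 89.3% of all merged regions.

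RefSeq genes of any kind overlapped 172 of the 552 regions (31.2%, 27.3 to 35.2%), below the 45.8% of the annotated span that they cover. Of all regions 82.0% overlapped one, and of assigned regions 89.5%. Within 10 kb of a RefSeq gene lay 266 unassigned regions (48.2%, 43.9 to 52.4%), against 61.8% of the span, 93.3% of all regions and 99.9% of assigned ones. Since most listed genes are RefSeq genes, the rule itself lowers these shares. The overlapped genes were 101 lncRNA genes in 108 regions, 52 protein-coding genes in 70 regions, 7 pseudogenes, 1 tRNA gene and 1 other RNA gene. No region overlapped a microRNA hairpin of the table used. The lncRNA genes with the highest regions were Gm36876 (15), Gm14114 and Gm34978 (9), and Gm46736, Gm41011 and Gm30528 (8).

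Of these regions, 37 overlapped the RefSeq model of 22 genes that the deposited table does list, with a shorter model. Zdbf2 had 7, Gata4, Tbx15 and Zfhx3 had 3 each, and Creb5, Foxp1, Sgms2 and Tbx5 had 2 each. Zdbf2 spans 41.3 kb in the deposited table and 114 kb in RefSeq. The Gata4 model spans 46.3 kb in the table and 72.8 kb in RefSeq, and the unassigned regions there had heights of 3, 3 and 8, the last equal to the highest assigned to the gene. At Lhx2 the RefSeq model reached 38339271, inside an unassigned region of height 8, whereas the deposited model starts at 38351308 and had a highest interval of 9. At Foxp1, a forkhead gene, the unassigned height of 7 exceeded the highest assigned one, 5. At Tbx15 the order was the reverse, with 5 against 21. There were 33 regions over 31 protein-coding genes that the table does not list, among them Gm34296, Prdm1 and Strbp.

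The share without a gene differed between chromosomes. On the autosomes it ran from 6.85% on chromosome 11 (23 of 336, 4.39 to 10.1%) to 21.2% on chromosome 3 (56 of 264, 16.4 to 26.6%). Chromosomes 7 (7.08%), 9 (7.69%) and 12 (7.85%) were low, and chromosomes 1 (19.2%) and 15 (18.9%) were high. On chromosome X it was 32.7% (16 of 49, 19.9 to 47.5%). Among regions called in run 2 only the values were 5.83% on chromosome 11, 21.1% on chromosome 3 and 32.6% on chromosome X. Per Mb of annotated span, however, chromosome X held 0.0937 unassigned regions, fewer than any autosome, whose densities ran from 0.103 on chromosome 7 to 0.350 on chromosome 3. Its density of all regions was 0.287 per Mb, against 1.29 to 2.76 on the autosomes. The high share on X thus went with few assigned regions rather than many unassigned ones. Across the 19 autosomes the share fell with the density of protein-coding genes (Spearman's rho = -0.665, given as a description of chromosomes from 1 sample). Regions over 10 kb from every listed gene are the unassigned ones, so the rule itself favours a higher share where genes are sparse. The density of unassigned regions had a rho of -0.300 with gene density, and that of all regions 0.646.

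**Figure D5:**
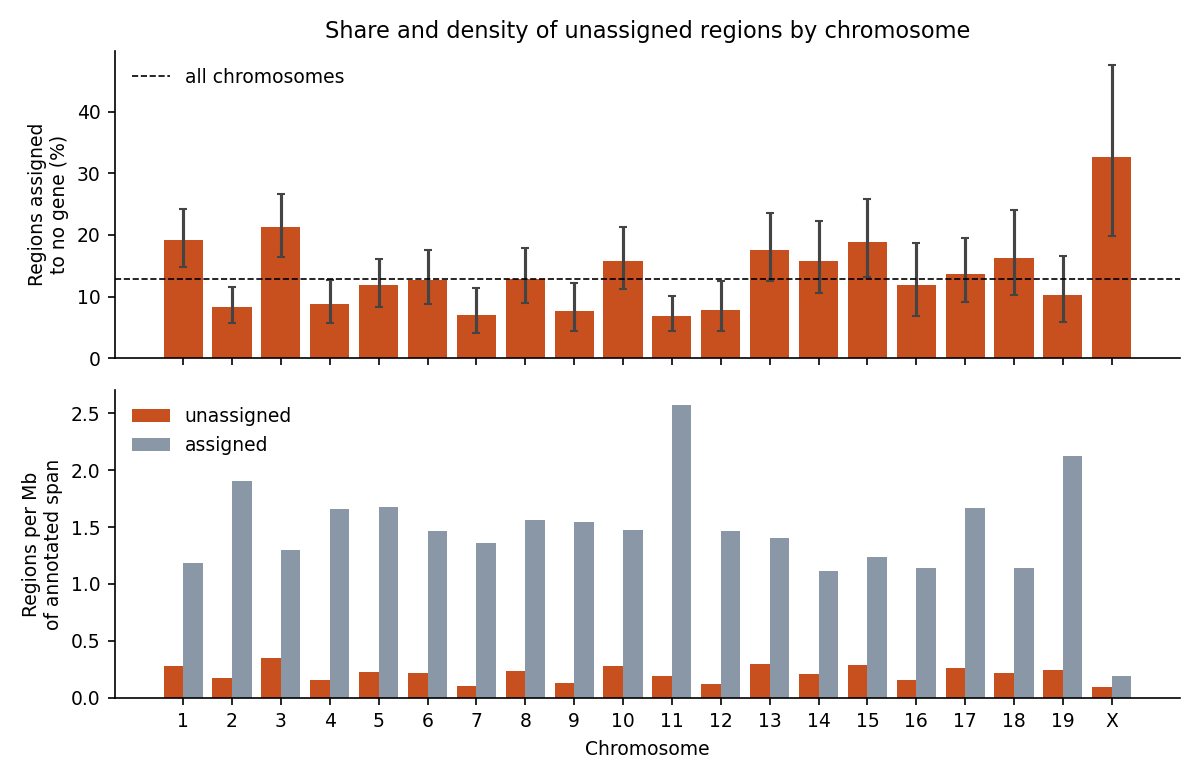
Top, percent of each chromosome's merged regions that were assigned to no gene, with exact 95% intervals as error bars and the share over all chromosomes (12.8%) as a dashed line. Bottom, unassigned and assigned regions per Mb of annotated span. Chromosome X has the highest share, 32.7%, at the lowest density of either class, and chromosome Y, with 1 region, is left out.

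Heights on either side of the 10 kb limit were as follows. Just beyond it lay a region of height 3 at 10068 bp from the nuclear receptor gene Nr2f1, one of height 4 at 10243 bp from Igf2bp3 and one of height 6 at 10372 bp from the homeobox gene Nkx2-3. Just within it, and so assigned, lay regions of height 5 at 9985 bp from Gbx2, height 4 at 9984 bp from Slc44a5 and height 5 at 9910 bp from Gm17580. An assigned region lay within 10 kb of 23 unassigned ones (4.17%, 2.66 to 6.19%), within 50 kb of 96 (17.4%) and within 100 kb of 150 (27.2%).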

How the data were processed

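The submitters' processing notes name SICER, BWA and the mm10 build, per the labels, without versions or settings. The authors deposited, per the file headers, summit, interval and merged region tracks. The deposited score of each summit is its height, with a scaling that is not stated. The deposited gene table gives each gene's highest signal (equal to the highest summit score of its intervals for all 3993 genes), its position and its intervals. Its 4 columns of per-run values and a list of track addresses were not used.

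Everything else was computed with pandas 2.3.3, scipy 1.17.1 and numpy 2.4.6 under Python 3.11.15, and drawn with matplotlib 3.10.9. A region's height is that of its highest interval. Distances run from region edge to gene body. RefSeq genes (GRCm38.p6, 49943 on chromosomes, no strand) include 3867 of the 3993 deposited gene identifiers. The annotated span of a chromosome ends at its last gene. Shares carry exact Clopper-Pearson 95% intervals, and no test was made. The distance search was tested on simulated data. The members, lists and comparisons were chosen with earlier results of these data known. Named regions were the 10 highest, the 10 widest, those in both runs, the 5 farthest, the 5 highest of run 1 only and the 3 largest groups. Genes named were those nearest to or overlapped by them, and the highest of the developmental and overlapped genes, and not every one taken by this rule is described (1 is not reported here). The CpG extremes, the longer gene models and the regions at the 10 kb limit were named after their values were seen. No genome sequence was used, so base content outside promoter windows was not measured, and chromosome 18 has no promoter window here.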

Additional observations from a re-analysis of the deposited data

How the results depend on the processing

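No paired analysis was possible because each group is a single sample, and no replicate could be left out. Each run was taken alone instead, with 465 intervals in run 1 and 3938 in run 2. Of 54 alternatives, 37 left a value within its 95% interval, or a count within 1.5 times, and 17 moved it. Only regions of height 6 or more left 63 unassigned regions, of which 4.76% were called in run 1. Their median height was 7, width 834 bp and distance 108953 bp, 54.0% lay within 10 kb of a RefSeq gene and 20.6% were nearest to a developmental gene. Run 1 alone left 131 regions with a median width of 607 bp and distance of 372582 bp, with 39.7% near a RefSeq gene and 6.11% nearest to a developmental gene. Run 2 alone gave a median distance of 176296 bp. The share near a RefSeq gene was 31.2% with overlap, 82.4% within 50 kb and 15% with protein-coding genes only. The developmental share within 100 kb was 7.97%. These alternatives keep fewer regions or change the window by construction, and other causes were not tested. Requiring named intervals over 50% of a region, or 10 kb from every listed gene, gave 552 regions again. With these settings every value stayed as reported, so their entries among the 37 do not show stability. Autosomes only gave 535. Leaving out regions over longer RefSeq models of listed genes, an alternative chosen after seeing the data, left 515. On chromosome X, the share was 22.2% at heights of 6 or more and 31.9% in run 2, both also added after seeing the data. Heights are whole numbers with many ties, so medians of 4 hide differences that shares show.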

Other observations

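More than 10 kb from every RefSeq gene lay 286 of the 552 unassigned regions (51.8%, exact 95% interval 47.6 to 56.1%). Their median height was 4 and their median width 617 bp. Of these, 207 were called in run 2 only, 77 in run 1 only and 2 in both runs. A height of 6 or more was reached by 29 and a height of 10 or more by 5, among them the regions of height 25 on chromosome 3 and of 4424 bp on chromosome 6. Over all 552 unassigned regions 11.4% reached 6 and 1.45% reached 10, and over all merged regions 24.6% and 3.80%. Called in run 1 only were 23.2% of the 552 and 8.99% of all merged regions.

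Height and width did not rise together at the low end. Among unassigned regions called in run 1 only, the median width was 626 bp at heights of 2 to 3, 613 bp at 4 and 382 bp at 5, with Spearman's rho of -0.473 over 128 regions. Assigned regions of run 1 only had 636, 580 and 403 bp, with a rho of -0.508 over 260 regions. In run 2 only, rho was 0.0246 over 421 unassigned and 0.298 over 3434 assigned regions, and unassigned regions of height 5 were narrower (480 bp) than those of height 4 (614 bp). These are descriptions across regions of 1 sample.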
